A study of Mus musculus with 12 samples.

Results

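Open chromatin was examined at 9 transcription factor genes of thymic epithelial identity, Foxn1, Pax1, Pax9, Six4, Eya1, Tbx1, Trp63, Ehf and Irf8, out of 21627 protein-coding genes in the mouse annotation. Peaks were taken as belonging to a gene when they lay inside its annotated span or within 1 kb of either end, which gave 576 of the 937988 peaks in the series. Accessibility had been profiled by ATAC-seq, in which a transposase cuts DNA that is not wrapped in nucleosomes. The cells were mTEChi, mature medullary thymic epithelial cells with high levels of surface maturation markers, sorted from dissociated thymi of C57BL/6 mice aged 4 to 7 weeks. There were 6 groups of 2 libraries: Aire -/- mice and their Aire +/+ wild types, Aire +/C313Y heterozygotes and their Aire +/+ wild types, and Aire +/C442G heterozygotes and their Aire +/+ wild types. AIRE is the regulator that lets these cells transcribe tissue-restricted genes, and C313Y and C442G are amino acid changes in it that the series studies as dominant mutations. The wild types carry one genotype label, so each pair was set against a mutant by the form of its title, which is an assumption. The labels do not say that libraries of a group came from separate mice, so the spread between them may be technical.

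FOXN1 is the forkhead factor without which no functional thymic epithelium forms. PAX1, PAX9, EYA1 and SIX-family factors act earlier, in the pharyngeal pouch endoderm from which the thymus arises, and TBX1 is needed for the pouches to form. p63, encoded by Trp63, maintains epithelial progenitors in thymus and skin and is made from an outer and an internal start site, EHF is an ETS factor of epithelia, and IRF8 is best known from dendritic and other myeloid cells. A peak marks accessible DNA at a gene and is no measure of its RNA.

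The lists differed in length, and the mutant lists were the longer ones in the knockout and C442G contrasts. In C313Y the lengths of mutant and wild-type lists overlapped. The Aire -/- lists held 85826 and 94976 peaks, against 34715 and 34047 in their wild types. The Aire +/C313Y lists held 75830 and 57280 peaks, against 73976 and 55861 in their wild types. The Aire +/C442G lists held 122326 and 115034 peaks, against 93659 and 94458 in their wild types. Read counts were not used, so depth is unknown, and more accessible chromatin, more reads and better signal cannot be told apart. Replicate lists shared 38.5% to 54.5% of their covered bases (intersection over union). Of 10 markers of mTEChi, 9 had a peak in every library, among them Aire, where 58.7% of all genes did. The tenth, the keratin gene Krt5, had none in the Aire -/- libraries or their wild types. The labels do not place the Aire deletion, so a peak at Aire does not check the genotype.

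Promoter sequences of 6 of the 9 genes were available from RefSeq (GRCm38.p6, which shares coordinates with mm10), each running from 250 bases before to 50 after an annotated start. They are shown because they hold the starts whose accessibility the results below describe. Bases in capitals lay inside peaks of at least 6 of the 12 libraries.
Foxn1 (chr11:78386559-78386858, minus strand): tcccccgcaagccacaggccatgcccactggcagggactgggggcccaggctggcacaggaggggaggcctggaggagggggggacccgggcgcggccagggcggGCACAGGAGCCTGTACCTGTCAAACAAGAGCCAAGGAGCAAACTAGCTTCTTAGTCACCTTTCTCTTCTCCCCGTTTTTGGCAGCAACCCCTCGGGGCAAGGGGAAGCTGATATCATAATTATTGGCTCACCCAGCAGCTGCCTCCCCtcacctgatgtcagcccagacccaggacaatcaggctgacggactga
Pax1 (chr2:147364744-147365043, plus strand): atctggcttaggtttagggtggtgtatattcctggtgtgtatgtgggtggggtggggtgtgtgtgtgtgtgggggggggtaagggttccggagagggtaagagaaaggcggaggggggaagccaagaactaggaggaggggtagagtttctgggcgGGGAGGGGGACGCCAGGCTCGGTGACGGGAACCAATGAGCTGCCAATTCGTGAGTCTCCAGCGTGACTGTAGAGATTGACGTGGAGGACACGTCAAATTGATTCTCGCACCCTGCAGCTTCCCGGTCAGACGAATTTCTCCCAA
Pax9 (chr12:56695221-56695520, plus strand): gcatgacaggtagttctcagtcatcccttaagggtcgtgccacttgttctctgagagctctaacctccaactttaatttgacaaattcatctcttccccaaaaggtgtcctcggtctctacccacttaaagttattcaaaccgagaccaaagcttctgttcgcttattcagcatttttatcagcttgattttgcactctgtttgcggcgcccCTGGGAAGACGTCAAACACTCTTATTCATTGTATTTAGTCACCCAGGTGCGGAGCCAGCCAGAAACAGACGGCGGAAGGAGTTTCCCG
Six4 (chr12:73113376-73113675, minus strand): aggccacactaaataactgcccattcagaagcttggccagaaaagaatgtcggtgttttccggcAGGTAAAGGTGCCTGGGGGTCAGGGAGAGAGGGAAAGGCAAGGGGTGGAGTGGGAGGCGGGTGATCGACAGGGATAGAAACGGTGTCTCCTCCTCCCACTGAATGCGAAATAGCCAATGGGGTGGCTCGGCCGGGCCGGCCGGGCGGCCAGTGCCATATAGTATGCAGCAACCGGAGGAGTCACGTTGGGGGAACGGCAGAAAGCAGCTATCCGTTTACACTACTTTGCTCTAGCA
Tbx1, outer start (chr16:18590622-18590921, minus strand): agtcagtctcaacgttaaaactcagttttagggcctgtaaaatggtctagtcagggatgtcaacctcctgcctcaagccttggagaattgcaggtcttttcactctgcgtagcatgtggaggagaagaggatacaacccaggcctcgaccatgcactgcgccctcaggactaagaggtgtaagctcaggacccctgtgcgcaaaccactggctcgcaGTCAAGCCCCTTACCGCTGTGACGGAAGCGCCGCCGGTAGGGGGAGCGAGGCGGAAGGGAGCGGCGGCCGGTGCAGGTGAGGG
Tbx1, inner start (chr16:18588850-18589149, minus strand): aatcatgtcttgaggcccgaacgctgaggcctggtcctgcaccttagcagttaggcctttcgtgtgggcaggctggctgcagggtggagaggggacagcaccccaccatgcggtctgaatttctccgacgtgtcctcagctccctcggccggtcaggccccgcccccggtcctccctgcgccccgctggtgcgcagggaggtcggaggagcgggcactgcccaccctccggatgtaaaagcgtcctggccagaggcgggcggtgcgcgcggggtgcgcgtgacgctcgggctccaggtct
Irf8, outer start (chr8:120736108-120736407, plus strand): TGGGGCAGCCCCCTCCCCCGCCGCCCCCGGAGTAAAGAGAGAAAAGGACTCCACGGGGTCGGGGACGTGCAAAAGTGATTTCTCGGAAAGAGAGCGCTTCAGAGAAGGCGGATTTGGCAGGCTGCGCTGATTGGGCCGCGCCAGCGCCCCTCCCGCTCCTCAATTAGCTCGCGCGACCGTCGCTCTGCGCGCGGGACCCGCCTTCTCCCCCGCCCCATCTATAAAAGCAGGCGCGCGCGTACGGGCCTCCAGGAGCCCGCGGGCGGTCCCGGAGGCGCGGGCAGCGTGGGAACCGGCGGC
Irf8, inner start (chr8:120738389-120738688, plus strand): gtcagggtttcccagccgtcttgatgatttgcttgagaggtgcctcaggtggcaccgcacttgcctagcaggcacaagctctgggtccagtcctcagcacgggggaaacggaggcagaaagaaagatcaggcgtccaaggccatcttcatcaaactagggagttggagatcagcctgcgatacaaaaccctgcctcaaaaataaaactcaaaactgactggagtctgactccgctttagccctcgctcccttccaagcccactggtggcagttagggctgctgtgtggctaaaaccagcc

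The starts differed in how often they were called open. Peaks overlapped the windows of Pax9, Six4 and the outer start of Irf8 in all 12 libraries, as 41.0% of the 21044 promoter windows in the table did. The outer Tbx1 window was overlapped in 10 libraries, the Foxn1 window in 8 and the Pax1 window in 7, and 50.4% of all windows had a peak in 8 libraries or fewer. The inner starts of Tbx1 and Irf8 had no peak in any library, as was the case for 35.4% of windows. So at Tbx1 and Irf8, the genes with more than one start printed here, the outer start was open and the inner one was not called. A second annotated Six4 start, which overlaps the printed window, also had a peak in all 12.

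Base composition did not follow these classes in a simple order. The outer Irf8 window, wholly covered by peaks in at least 6 libraries, had 70.0% G and C and 38 CG pairs, against medians of 56.7% and 13 over all windows. The Pax9 window, also open in 12 libraries, had 47.0% G and C and 11 CG pairs. The inner Tbx1 window, never called, had 69.0% G and C and 26 CG pairs. Motifs were searched as letters on both strands. GACGC, the core bound by FOXN1, occurred once at Pax1, once at the inner Irf8 start and 2 times at the inner Tbx1 start, and 33.7% of all windows hold it. GGAA, the core of ETS sites, was absent from the inner Tbx1 window and present in the others, as in 95.7% of all windows. CANNTG, the E-box, occurred 2 times each at Foxn1, Pax9, the outer Tbx1 and the inner Irf8 window, and 69.0% of all windows hold it. TGANTCA, the AP-1 site, and the interferon response element bound by IRF proteins were in none of the windows, and 7.04% and 3.38% of all windows hold them. These matches are letters in a window and no evidence of binding.

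Of the 9 genes, 7 had a peak in all 12 libraries, and 58.7% of protein-coding genes did. Pax1 had a peak in 11 libraries, missing in 1 wild type of the knockout set, and Tbx1 in 10, missing in both of those wild types. Tbx1 was thereby the one member gained in Aire -/- mice, gained meaning a peak in both mutant libraries and neither wild type. Across all genes 5.42% were gained and 0.0277% lost in the knockout contrast, lost meaning the reverse. No member was gained or lost in the C313Y contrast, where 0.578% of genes were gained and 0.439% lost, nor in the C442G contrast, where 0.749% were gained and 0.162% lost. No test was made of these counts, since 2 libraries against 2 cannot pass one. The Tbx1 call was lost under stricter settings: with lists cut to equal length 0 members were gained in the knockout, and at a −log10 q of at least 3 the gained members were Pax1 and Ehf.

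Foxn1, chr11:78357577-78386783, had 71 peaks over the 12 libraries and no region called in all of them. At its start, the region chr11:78386347-78386977 was absent from 1 Aire -/- library and 253 bp wide in the other, against no peak in either wild type. In the C313Y contrast it was 105 bp wide in 1 heterozygote and absent in the other, against 293 and 407 bp in the wild types. In Aire +/C442G libraries it was 141 and 409 bp wide, against 342 and 384 bp in their wild types. The start was thus open in both libraries of 3 groups, both C442G groups and the wild types of the C313Y set.

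**Figure D1:**
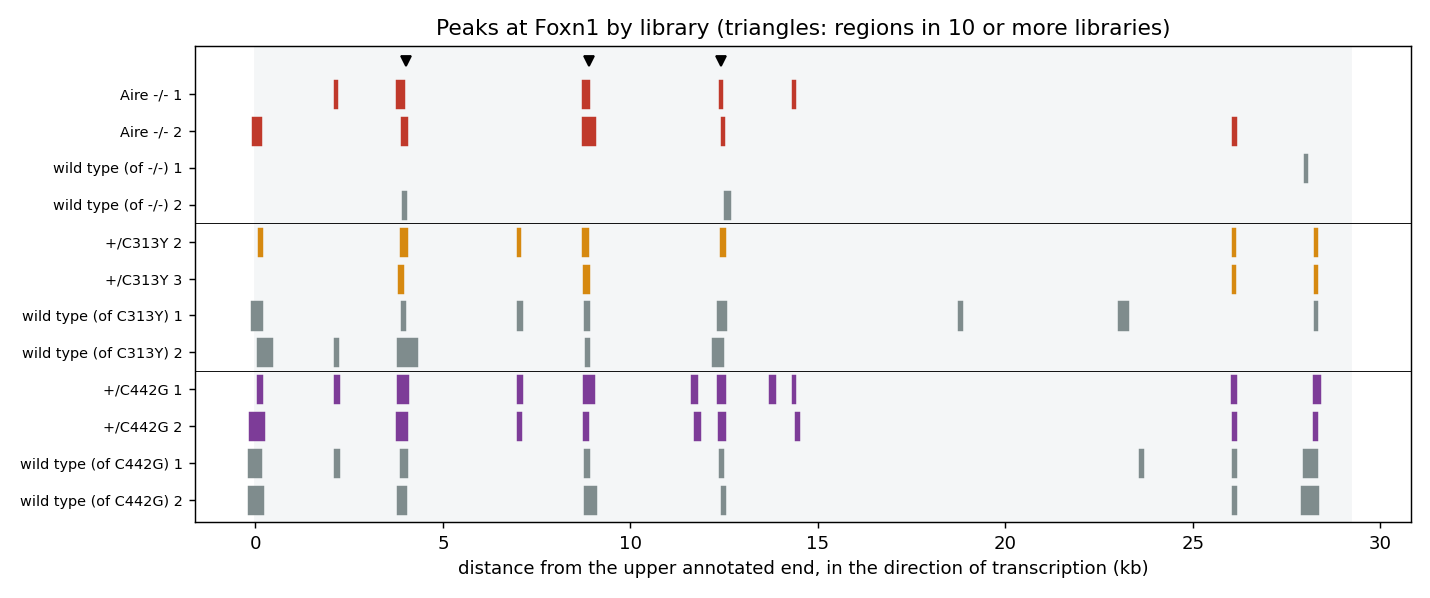
Peaks at Foxn1 in each of the 12 libraries (rows), by distance in kb from the upper annotated end in the direction of transcription, with the gene span shaded and triangles over regions called in 10 or more libraries. The triangles stand inside the gene and none at the start, which was called in 8 libraries.

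The most often called Foxn1 regions lay inside the gene. Region chr11:78382470-78383046 had a peak in 11 libraries, all but 1 wild type of the knockout set. It was 193 and 169 bp wide in Aire -/- libraries, against none and 107 bp in their wild types. In Aire +/C313Y libraries it was 175 and 136 bp wide, against 101 and 543 bp, and in Aire +/C442G libraries 292 and 311 bp, against 204 and 256 bp. Mutant and wild-type widths overlapped in the C313Y contrast and did not in the other 2. Region chr11:78377711-78378076, in 10 libraries, was 171 and 354 bp wide in Aire -/- libraries with no peak in their wild types, so it counted as gained there.

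The total length of peaks at Foxn1, here called covered length, was 607 and 982 bp in Aire -/- libraries, against 71 and 270 bp in their wild types. It was 832 and 470 bp in Aire +/C313Y libraries, against 1328 and 1461 bp in their wild types. The Aire +/C442G libraries measured 1921 and 1579 bp, against 1482 and 1616 bp in their wild types. Foxn1 was therefore higher in the knockout, lower in C313Y and overlapping in C442G.

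Covered length was compared for every gene as the log2 of covered length plus 100 bp, mutant minus wild type, averaged over the 3 contrasts and tested by an exact two-sided permutation test within contrasts. The 216 assignments allow a smallest p of 0.00926, and with Benjamini-Hochberg adjustment over the 18136 genes with a peak in any library, all 9 members among them, none passed an adjusted p of 0.05, a share of 0.0%. The smallest adjusted p of any gene was 0.111, so no member could be called. An unadjusted p under 0.05 was reached by 4714 genes, or 26.0%, and by 4 of the 9 members, Ehf, Eya1, Trp63 and Irf8. The median gene stood 0.35 above wild type on this log2 scale, with 0.74 in the knockout, 0.11 in C313Y and 0.15 in C442G, so each member is to be read against those shifts. The members' median was 0.66, with 1.80 in the knockout, 0.22 in C313Y and 0.16 in C442G. As a share of each list's covered length, the median gene stood at -0.08. Foxn1 stood at 0.31 (exact permutation p = 0.537, adjusted p = 0.689), and at -0.16 as a share of the list. Members above 0 then numbered 6 of 9, against 42.6% of genes, where the unscaled count was 9 of 9, against 88.5% of genes. Without overlap in all 3 contrasts, mutants exceeded wild types at 0 of the 9 members and at 8.36% of genes.

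**Figure D2:**
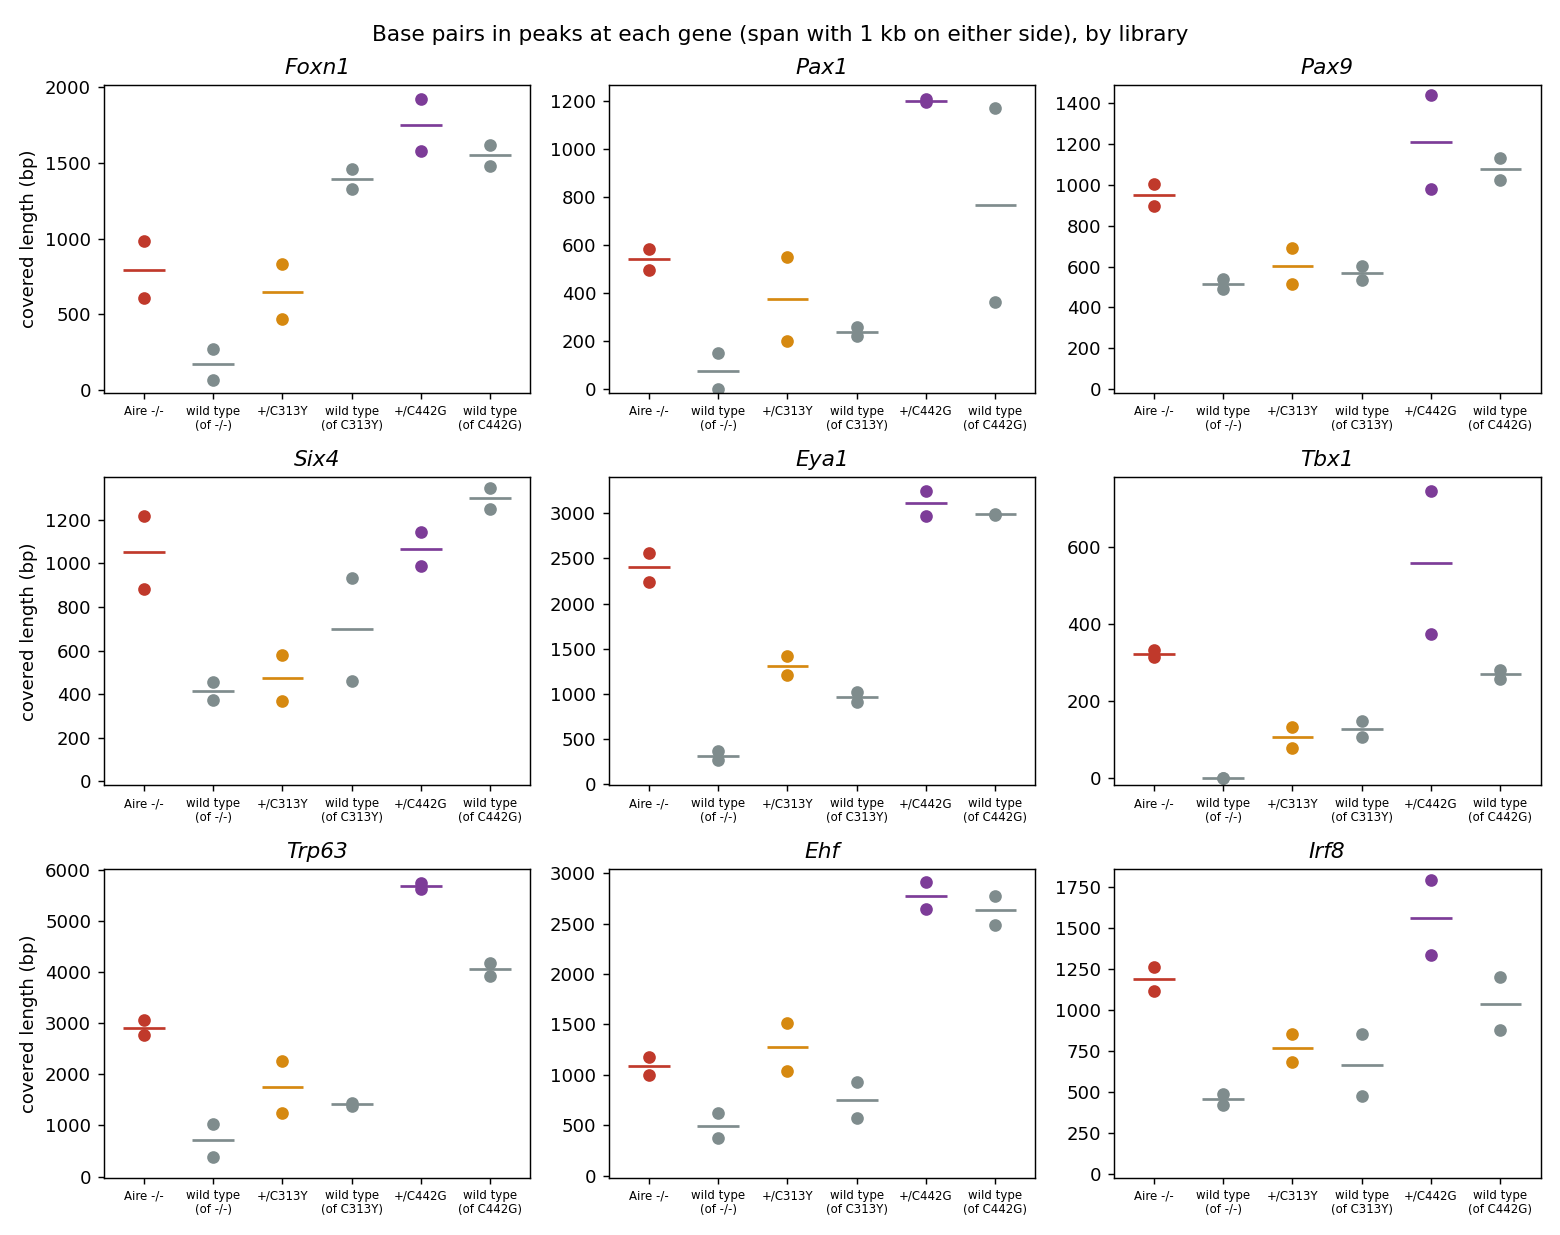
Covered length in bp at each of the 9 genes (panels) in each library (points, with group means as bars) for the 6 groups, mutants in colour and wild types in grey. The wild types of the knockout set have the lowest group mean at every gene, and Foxn1 in Aire +/C313Y libraries (832 and 470 bp) lies below its wild types (1328 and 1461 bp).

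Among the pouch genes, Pax1 and Pax9 encode related paired-box factors, and their loci behaved differently. Pax1, chr2:147361930-147375049, had a covered length of 583 and 495 bp in Aire -/- libraries, against 150 and 0 bp in their wild types. Its values were 549 and 199 bp in Aire +/C313Y libraries, against 256 and 217 bp in their wild types. In Aire +/C442G libraries they were 1196 and 1206 bp, against 359 and 1169 bp in their wild types. Both mutants exceeded both wild types in the knockout and, narrowly, in C442G, while in C313Y they overlapped. The mean log2 difference was 1.06 (exact permutation p = 0.0648, adjusted p = 0.204), with 0.74 as a share of the list and 0.35 with lists of equal length (exact permutation p = 0.370). The most frequent Pax1 regions were chr2:147362441-147362621 and chr2:147364869-147365277, the second at the printed start. Each was called in 9 libraries and counted as gained in the knockout.

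Pax9, chr12:56691693-56712824, held one of the steadiest regions. At its start, chr12:56695418-56696005 was 433 and 544 bp wide in Aire -/- libraries, against 541 and 490 bp in their wild types. It measured 505 and 517 bp in Aire +/C313Y libraries, against 517 and 535 bp in their wild types. The Aire +/C442G libraries measured 573 and 588 bp, against 548 and 586 bp in their wild types. No contrast separated mutants from wild types. Over the whole gene, covered length was 1006 and 894 bp in Aire -/- libraries, against 541 and 490 bp in their wild types. It was 689 and 517 bp in Aire +/C313Y libraries, against 601 and 535 bp, and 1441 and 979 bp in Aire +/C442G libraries, against 1130 and 1024 bp. The knockout excess thus lay outside the start, with chr12:56696416-56697123 and chr12:56708611-56708804 counted as gained there. For Pax9 as a whole the log2 difference was 0.32 (exact permutation p = 0.102, adjusted p = 0.254), and -0.23 as a share of the list.

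Six4 encodes a homeodomain factor and Eya1 the phosphatase coactivator that works with such factors. Six4, chr12:73099609-73114031, had a covered length of 884 and 1219 bp in Aire -/- libraries, against 456 and 375 bp in their wild types. It was 579 and 369 bp in Aire +/C313Y libraries, against 935 and 461 bp in their wild types. In Aire +/C442G libraries it was 990 and 1143 bp, against 1250 and 1348 bp in their wild types. Six4 was thus higher in the knockout, overlapping in C313Y and lower in C442G, and it was the one member whose longest group was a wild-type group. Its mean log2 difference was 0.15 (exact permutation p = 0.639, adjusted p = 0.780). As a share of the list it turned to -0.39 (exact permutation p = 0.0278, adjusted p = 0.314). Six4 was the only member with an unadjusted p under 0.05 on that scale. A region inside Six4, chr12:73110418-73110634, was 89 and 124 bp wide in Aire -/- libraries with no peak in their wild types. It was 125 and 130 bp wide in Aire +/C313Y libraries, against 103 and 111 bp in their wild types, and 167 and 202 bp in Aire +/C442G libraries, against 166 and 161 bp. Mutants lay above wild types in every contrast, by as little as 1 bp in C442G.

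Eya1, chr1:14168953-14311035, had a log2 difference of 2.61 in the knockout, the largest of the 9 genes on the unscaled log2 scale. As a share of the list it was 1.45, below Tbx1 (2.02) and Pax1 (1.48). Covered length was 2561 and 2240 bp in Aire -/- libraries, against 261 and 364 bp in their wild types. Aire +/C313Y libraries had 1418 and 1201 bp, against 1013 and 911 bp in their wild types. Aire +/C442G libraries had 3254 and 2973 bp, against 2994 and 2983 bp in their wild types. The groups did not overlap in the knockout and C313Y and overlapped in C442G. Averaged over the contrasts, the log2 difference was 1.02 (exact permutation p = 0.0278, adjusted p = 0.145). It was 0.50 as a share of the list (exact permutation p = 0.167) and 0.08 with lists of equal length (exact permutation p = 0.741). A pair of Eya1 regions was called in every library. The one by the upper end, chr1:14309691-14310366, was 601 and 582 bp wide in Aire -/- libraries, against 106 and 262 bp in their wild types, the 262 bp being the sum of 2 peaks. It did not separate the groups in the other 2 contrasts. The one inside, chr1:14304433-14305586, held 376 and 271 bp in Aire +/C442G libraries, each summed over 2 peaks. Their wild types had 961 bp in 1 peak and 709 bp in 2 peaks, the reverse direction. Another 6 Eya1 regions counted as gained in the knockout.

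Tbx1, chr16:18580979-18590671, encodes the T-box factor of the pharyngeal arches and had the fewest peaks, 13 in all. Its covered length averaged 322 ± 12.7 bp in Aire -/- libraries (SD, n = 2), and neither of their wild types had a peak. It was 133 and 76 bp in Aire +/C313Y libraries, against 146 and 107 bp in their wild types. The Aire +/C442G libraries measured 743 and 372 bp, against 280 and 257 bp in their wild types. All 10 libraries with a Tbx1 peak had one at chr16:18590372-18590717, by the outer start. The mean log2 difference was 0.90 (exact permutation p = 0.0648, adjusted p = 0.204), and -0.16 when lists were cut to equal length.

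Trp63, chr16:25683763-25892088, was the longest gene and had the most peaks, 166 in 39 regions. Covered length was 2770 and 3052 bp in Aire -/- libraries, against 1038 and 381 bp in their wild types. Aire +/C313Y libraries had 2265 and 1234 bp, against 1380 and 1443 bp in their wild types. Aire +/C442G libraries had 5617 and 5740 bp, against 4182 and 3931 bp in their wild types. The groups were apart in the knockout and C442G and overlapped in C313Y. Averaged over the contrasts, the log2 difference was 0.91 (exact permutation p = 0.0278, adjusted p = 0.145). As a share of the list it was 0.34 (exact permutation p = 0.111), and with lists of equal length 0.12 (exact permutation p = 0.620).

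At the lower annotated end of Trp63, chr16:25683571-25684393, the peak was 823 and 504 bp wide in Aire -/- libraries, against 187 and 77 bp in their wild types. It was 530 and 406 bp wide in Aire +/C313Y libraries, against 78 and 89 bp in their wild types. In Aire +/C442G libraries it was 487 and 479 bp wide, against 118 bp and no peak in their wild types. All 6 mutant libraries exceeded all 6 wild types here in width. The mean log2 difference was 1.78, with 1.73 in the knockout, 1.62 in C313Y and 1.98 in C442G (exact permutation p = 0.00926, the smallest it can give, adjusted p = 0.564 over 129764 regions). This region and the Six4 region above were singled out after their values were seen, as the 2 of 131 member regions, or 1.53%, with mutants above wild types in all 3 contrasts. Over all regions in gene windows that share was 1.64%, the reverse was found at 0.00385%, and 0.0% passed an adjusted p of 0.05, so the count says nothing particular to the members. As a share of the list the difference at the Trp63 end was 1.33 (exact permutation p = 0.0185), and with lists of equal length 0.95 (exact permutation p = 0.157). In the lists with strength values these peaks had a −log10 q of 1.46 to 2.26, so none reached 3. Their fold enrichment over background was 3.59 and 3.27 in Aire -/- libraries, against 3.62 and 3.81 in their wild types. In Aire +/C442G libraries it was 3.53 and 3.78, against 3.40 in the wild type with a peak. These strengths were not tested.

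**Figure D3:**
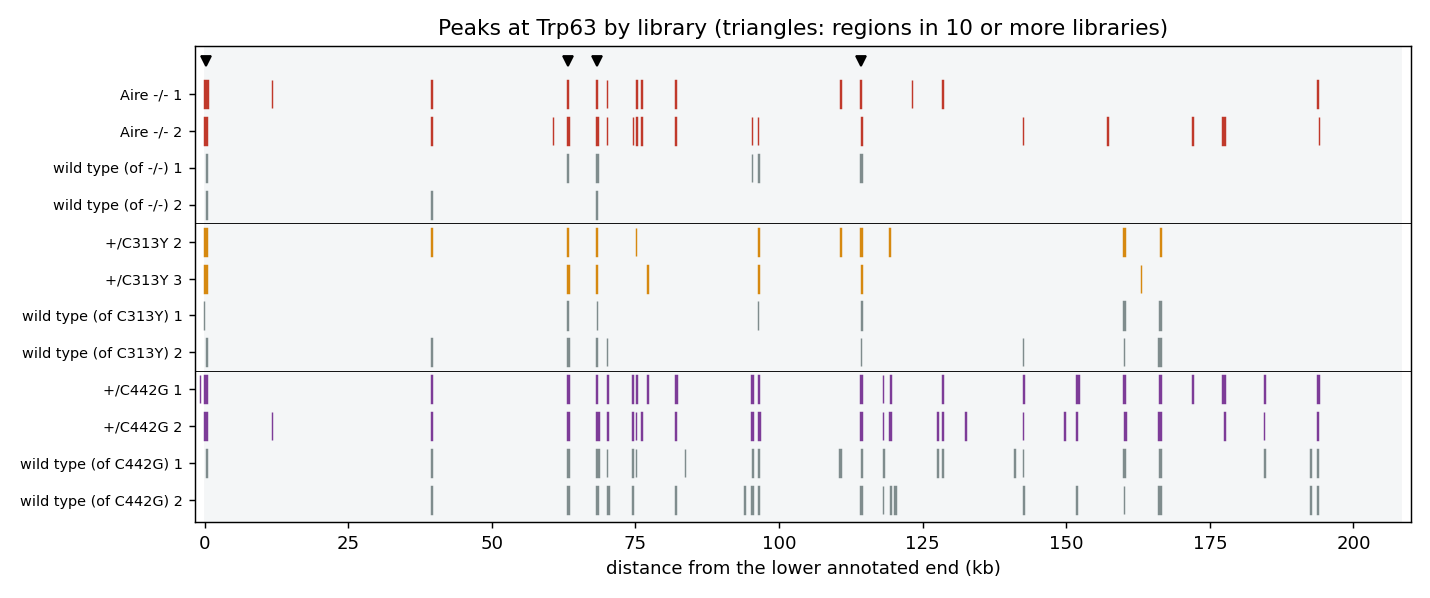
Peaks at Trp63 in each of the 12 libraries (rows), by distance in kb from the lower annotated end, with the gene span shaded and triangles over regions called in 10 or more libraries. Every mutant library has a peak at the lower end, of 406 to 823 bp, and the wild types have none to 187 bp there.

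Inside Trp63, chr16:25751871-25752348 was called in every library and 4 further inner regions in 9 to 11. One of these, chr16:25797841-25798163, was absent from 1 wild type of the knockout set. One region, chr16:25876212-25876337, was the only member region lost in any contrast, at 88 and 114 bp in the wild types of C442G.

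Ehf, chr2:103263431-103303275, had a covered length of 994 and 1176 bp in Aire -/- libraries, against 369 and 622 bp in their wild types. Aire +/C313Y libraries had 1514 and 1041 bp, against 925 and 575 bp in their wild types. Aire +/C442G libraries had 2640 and 2911 bp, against 2776 and 2485 bp in their wild types. The groups were apart in the knockout and C313Y and overlapped in C442G. Averaged over the contrasts, the log2 difference was 0.60 (exact permutation p = 0.0185, adjusted p = 0.130), but 0.05 as a share of the list and -0.45 with lists of equal length. The upper end, chr2:103302620-103304146, was the widest member region, open in every library. Its peaks, 1 to 3 per library, summed to 819 and 1013 bp in Aire -/- libraries, against 179 and 361 bp in their wild types. They summed to 1128 and 691 bp in Aire +/C313Y libraries, against 523 and 363 bp, and to 1145 and 1468 bp in Aire +/C442G libraries, against 1452 and 1468 bp. A longer sum was thus found in 2 contrasts and not in C442G.

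Irf8, chr8:120736358-120756694, had a covered length of 1261 and 1114 bp in Aire -/- libraries, against 424 and 492 bp in their wild types. Aire +/C313Y libraries had 852 and 685 bp, against 857 and 479 bp in their wild types. Aire +/C442G libraries had 1789 and 1333 bp, against 1201 and 876 bp in their wild types. Mutants were above wild types in the knockout and C442G and overlapped in C313Y. The mean log2 difference was 0.66 (exact permutation p = 0.0370, adjusted p = 0.163), with 0.11 as a share of the list and 0.45 with lists of equal length. At the outer start, chr8:120735843-120736704, widths overlapped in C313Y and C442G, and were 539 and 754 bp in Aire -/- libraries, against 424 and 492 bp in their wild types. Since IRF8 is best known from myeloid cells, markers of dendritic cells and macrophages were measured beside it. Of those 10 markers, 3 had a peak in every library, as 58.7% of all genes did. Cd209a and Siglech had none, as was the case for 16.1% of all genes. Clec9a and Csf1r counted as gained in the knockout, as did 5.42% of all genes. The summed covered length of the 10 markers was 4.49 to 6.15 kb in Aire -/- libraries, against 1.32 to 1.84 kb in their wild types. It was 3.64 to 4.96 kb in Aire +/C313Y libraries, against 2.58 to 2.63 kb, and 7.29 to 8.51 kb in Aire +/C442G libraries, against 5.86 to 6.23 kb. Their part in the Irf8 values was not tested.

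**Figure D4:**
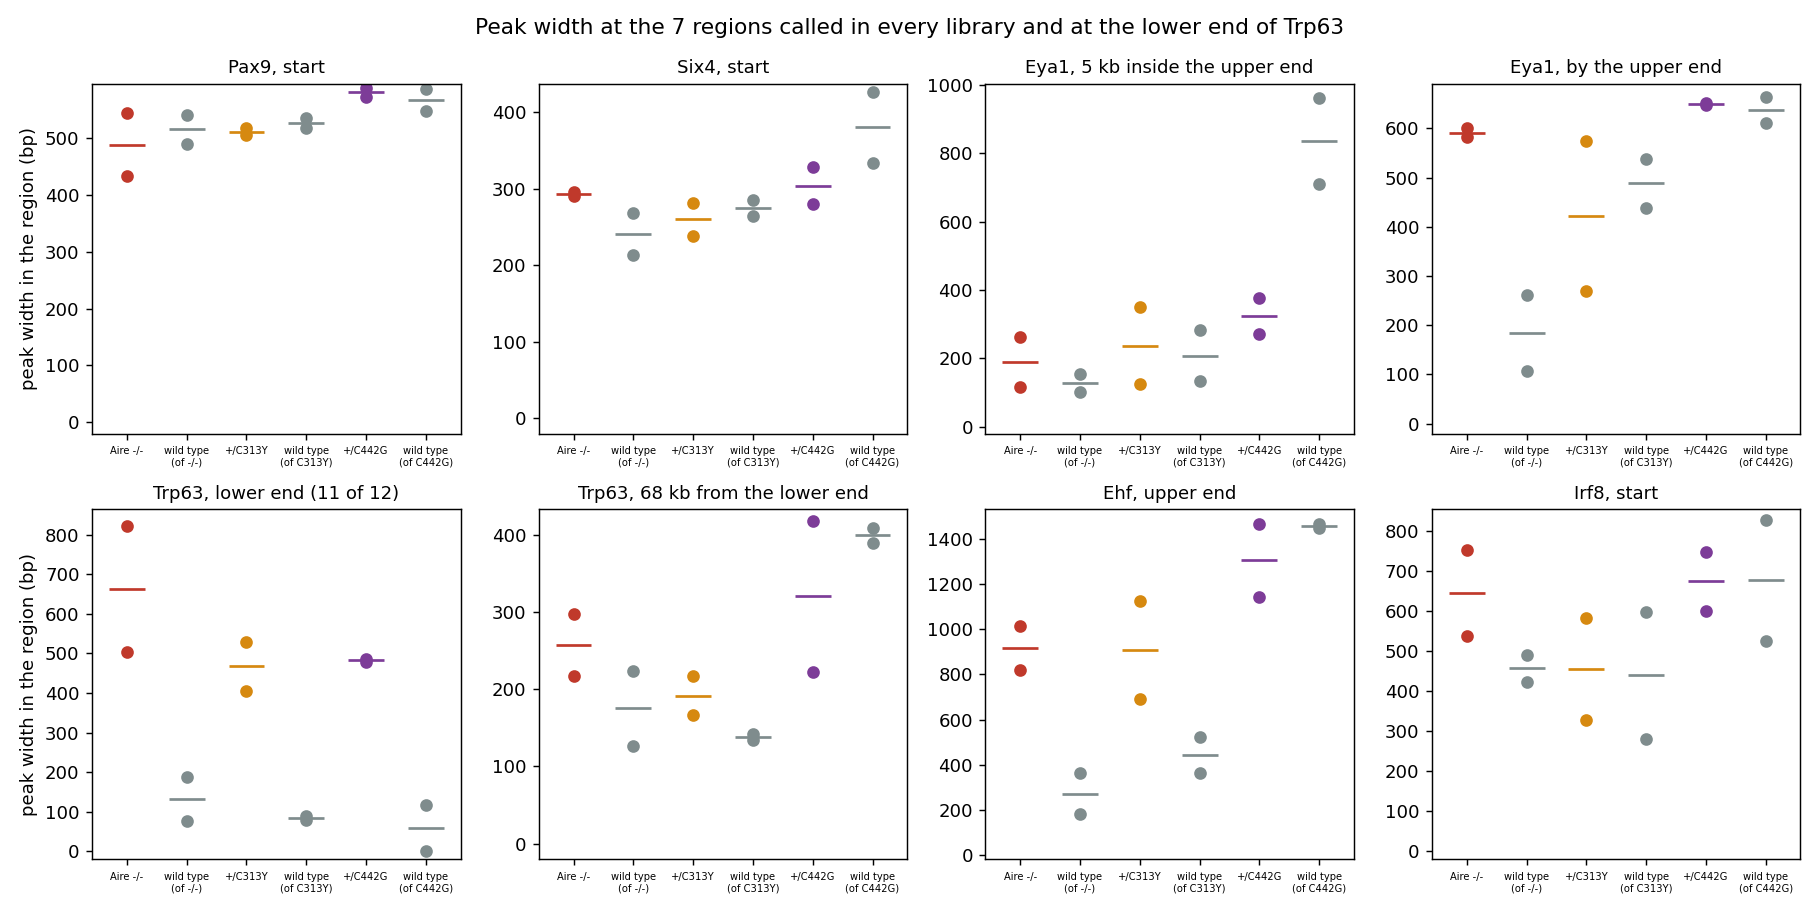
Peak width in bp at the 7 regions called in all 12 libraries and at the lower end of Trp63 (panels), per library (points, with group means as bars) for the 6 groups, a library without a peak being drawn at 0. The Pax9 start is of similar width in every group (433 to 588 bp), and the lower end of Trp63 measures 406 to 823 bp in mutants and at most 187 bp in wild types.

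Of the 7 member regions open in all libraries, summed Aire -/- peak widths were above wild type without overlap at 4, Six4, Eya1 by its upper end, Ehf and Irf8. Over the 14175 such regions in gene windows, 58.9% were wider in both Aire -/- libraries than in either wild type, and the median width ratio of all of them was 1.36. The corresponding shares were 30.2% in C313Y and 21.6% in C442G, where 13.3% were narrower. Among the 131 member regions, 7 (5.34%) were called in all 12 libraries, against 10.9% of all regions, and 47 (35.9%) in a single library, against 40.9%. Regions within 1 kb of an end made up 11.5% of member regions and 17.2% of all regions. They held 4 of the 7 member regions open in all libraries, against 9229 of the 14175 such regions in all gene windows. For member regions only the ends of the member itself counted, and for all regions those of any protein-coding gene. The member and overall values are thus not on one measure. The ends are those of the annotated span. The regions at the printed Pax9 and Pax1 starts, 3725 and 2939 bp from the lower end, were therefore not counted as within 1 kb of an end.

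**Figure D5:**
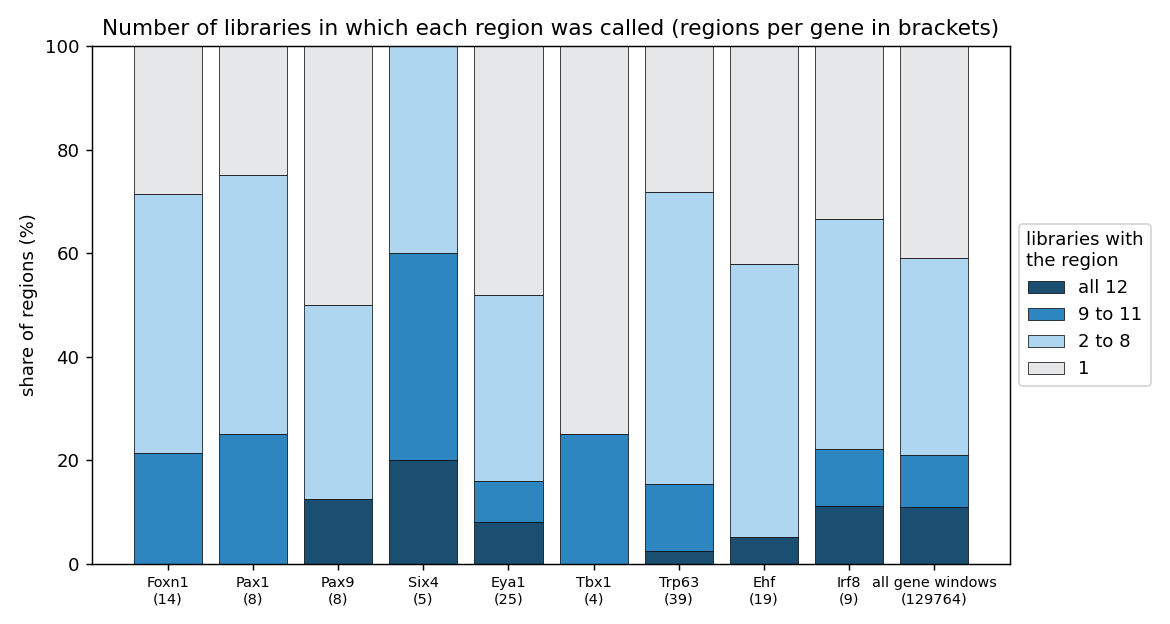
Share of regions (%) called in all 12, in 9 to 11, in 2 to 8 or in 1 of the 12 libraries, for each of the 9 genes and for all gene windows, with the number of regions in brackets. Foxn1, Pax1 and Tbx1 have no region called in all 12 libraries.

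In the knockout contrast 22 member regions (16.8%) counted as gained and none as lost, against 11.3% and 0.0462% of all regions. In C313Y 2 were gained (1.53%) and none lost, against 2.38% and 0.621%. In C442G 10 were gained (7.63%) and 1 lost, against 5.17% and 0.686%. With a library left out the gained counts were 25 to 38 in the knockout, 3 to 13 in C313Y and 15 to 22 in C442G, since fewer lists then had to agree. With lists of equal length they were 3 in the knockout, 0 in C313Y and 2 in C442G. Open in at least 3 mutant libraries and no wild type were 5 member regions, 1 in Foxn1, 2 in Trp63 and 2 in Irf8, and 3.24% of all regions. None showed the reverse, as 0.0917% of all regions did. Per length of window, Six4 was covered most, at a mean of 5.08% over the libraries (84.7th percentile of genes with a peak), and Eya1 least, at 1.28% (36.3rd percentile).

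Strength was read from the fold enrichment over background that the authors' caller gave per peak in the 8 lists of the knockout and C442G contrasts, as the percentile of a gene's strongest peak within its own list. Pax9 ranked high throughout, at percentiles 94.2 and 91.8 in Aire -/- lists, 79.7 and 94.2 in their wild types, 87.2 and 86.9 in Aire +/C442G lists and 87.5 and 86.0 in their wild types. Tbx1 ranked lower, at 50.2 and 61.5 in Aire -/- lists, 68.7 and 30.0 in Aire +/C442G lists and 37.2 and 49.2 in their wild types. Foxn1 reached 72.5 and 76.4 in Aire -/- lists, 58.0 and 3.3 in their wild types, 77.8 and 84.3 in Aire +/C442G lists and 79.6 and 64.5 in their wild types. Ranks from lists of unequal length cannot show whether strength changed between groups, and the strongest peak of a gene need not be the same region in each list.

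Related genes were counted in the same way. Over all genes 58.7% had a peak in all 12 libraries and 16.1% in none. Gained and lost were 5.42% and 0.0277% of all genes in the knockout, 0.578% and 0.439% in C313Y, and 0.749% and 0.162% in C442G. The lists below are too short to be set apart from these shares. Of 16 other thymus and pouch genes, 9 had a peak in all libraries, Foxi3 was gained in the knockout (338 and 107 bp, against none in the wild types) and Nkx2-5 was lost in C442G (none, against 159 and 162 bp). Of 12 FOXN1 target genes, such as Psmb11 and Dll4, 10 had a peak in all libraries and none was gained or lost. Of 37 paralogs, 25 had a peak in all libraries and Pax4 in none, and Pax8, Tbx4, Tbx5 and Spdef were gained in the knockout and Foxn4 lost. In C313Y the paralogs Pax8 and Six3 were lost. No gene of these lists passed the adjusted test, and their median log2 differences were 0.36, 0.48 and 0.52 beside 0.35 over all genes. Of other cell types the sort could hold, 2 of 10 T cell markers had a peak in every library, and Cd8a and Rag1 in none. Of 6 markers each, 1 of fibroblasts and 2 of endothelium had a peak in all 12. Kdr of the endothelial list was gained in the knockout, and of the fibroblast list Dcn was lost in C313Y and Lum gained in C442G. Summed covered length of the T cell markers was 1.66 to 1.85 kb in Aire -/- libraries, against 0.430 to 0.985 kb in their wild types, and 2.40 to 2.59 kb in Aire +/C442G libraries, against 1.22 to 1.51 kb. In Aire +/C313Y libraries it was 1.22 to 1.95 kb, against 0.946 to 1.24 kb, and these overlapped. Fibroblast markers summed to 1.504 to 1.838 kb in Aire -/- libraries, against 0.366 to 0.436 kb, to 1.81 to 2.27 kb in Aire +/C313Y libraries, against 1.34 to 1.92 kb, and to 2.845 to 3.002 kb in Aire +/C442G libraries, against 1.78 to 1.85 kb. Endothelial markers summed to 3.06 to 3.61 kb in Aire -/- libraries, against 1.04 to 1.23 kb, to 2.20 to 3.33 kb in Aire +/C313Y libraries, against 1.87 to 2.63 kb, and to 5.97 to 6.06 kb in Aire +/C442G libraries, against 4.15 to 4.66 kb. The mTEChi markers summed to 9.545 to 9.763 kb in Aire -/- libraries, against 4.547 to 4.856 kb, and to 16.1 to 16.8 kb in Aire +/C442G libraries, against 12.3 to 14.2 kb. In C313Y they overlapped. The summed lengths of all these lists stood above wild type without overlap in the knockout and C442G, as did the total covered length of the peak lists. That total was 17.6 and 20.1 Mb in Aire -/- libraries, against 7.04 and 7.30 Mb in their wild types. Whether some marker lists rose more than others was not tested. The part of other cell types in the members' values was not tested either.

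Genes whose share of the list ran most like a member's over the 12 libraries were found among 16072 genes, as a description with no test. For Foxn1 these were Cpne5 and Gm51571 (Pearson r = 0.92 for each), for Pax9 Wac (0.97) and Tigd2 (0.95), and for Trp63 Gnptab (0.96) and Ppp3ca (0.94). For Ehf they were Tnfrsf11a (0.89), which encodes RANK, a receptor of medullary thymic epithelium, and Cotl1 (0.87). Other likeness values for the remaining members ranged between 0.85 and 0.95.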

How the data were processed

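ATAC-seq libraries of sorted mTEChi were deposited as 1 peak list per library, so peaks were called per sample. MACS2, Picard, Bowtie2, cutadapt and the build mm10 are listed in the submitters' processing notes, without roles or versions; how reads were shifted or duplicates treated is not given in the sources used. In 8 lists the authors deposited a score, a fold enrichment (a ratio over background), a −log10 p and a −log10 q per peak; the 4 lists of the C313Y contrast hold positions only. Those values are the authors' own and were used within one list, or printed as given without a test.

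Positions on chromosomes 1 to 19 and X were read with Python 3.11.15, numpy 2.4.6 and pandas 2.3.3, and figures were drawn with matplotlib 3.10.9. Genes were those of RefSeq GRCm38.p6, whose table gives no strand or exons. Peaks were merged over the 12 lists into regions where they overlapped by 1 bp. Covered length was compared on the log2 scale with 100 bp added, by an exact permutation test within contrasts, with Benjamini-Hochberg adjustment, and the code was tested on simulated data. All 9 members were described; of other lists up to 4 gained and 4 lost genes per contrast, and for likeness the 2 most correlated genes, were named. Members and lists were chosen with earlier results of these data known, and the region test and the 2 regions singled out were added after seeing the data. Deviations from the group mean were hardly correlated between libraries of equal replicate number (0.018 in the knockout and 0.0049 in C442G). With 2 libraries per group this cannot decide whether the numbers pair the samples. Depth is unknown. Alternatives were a share of the list, lists of equal length, a −log10 q of at least 3, other pseudocounts, windows, filters and overlap rules, a replicate block and each library left out. Lists of equal length were cut within each contrast to its shortest list. The peaks with the highest −log10 p were kept, but in C313Y, without such values, the widest peaks. That cut is thus no uniform measure of strength. The result of 1 marker list is not reported here.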

Additional observations from a re-analysis of the deposited data

Results flagged for a closer look

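At 2 genes every library of one contrast moved one way and every library of another the opposite way; these differences between contrasts were not tested. Foxn1 covered length was higher in the knockout (log2 difference 1.80) and lower in C313Y (-1.03). Six4 covered length was higher in the knockout (1.15) and lower in C442G (-0.26). As a share of the list Six4 stood at -0.06 in the knockout and -0.54 in C442G, so the directions were no longer opposite. On that scale Foxn1 stood at 0.86 in the knockout and -1.18 in C313Y. Knockout libraries then overlapped their wild types at both genes.

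Opposite directions without scaling were also seen at single regions. At chr11:78374135-78374616 inside Foxn1 the log2 difference was -1.27 in C313Y and 0.47 in C442G. At Six4, chr12:73103735-73104249 had 1.77 in the knockout and -0.50 in C442G, and chr12:73113215-73113653 at the start had 0.21 and -0.25. At that Six4 start the C442G widths were 280 and 328 bp, against 427 and 334 bp in their wild types. At Trp63, chr16:25746769-25747135 had 0.87 in the knockout and -0.23 in C442G. Its widths were 158 and 231 bp in the knockout, against 157 bp and no peak in the wild types. In C442G they were 259 and 231 bp, against 266 and 346 bp, so both separations were narrow. Among the 6 wild types, the covered length of Pax1 in replicate 2 of the C442G set, 1169 bp, lay far from the others. Chance flags about 1 in 20 groups.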

How the results depend on the processing

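No member passed the adjusted test in any setting, and neither did any other gene, so this says nothing particular to the members. The smallest exact permutation p was 0.00926 in the main setting. It was 0.0208 with the replicate block, which uses 96 assignments and where 0 members passed. No paired analysis beyond this block was possible because the C313Y groups share 1 replicate number only, and whether the numbers pair the samples elsewhere is unknown. Scaled to a share of the list, the log2 difference turned to -0.16 at Foxn1, -0.23 at Pax9 and -0.39 at Six4. Lists of equal length kept the peaks with the highest −log10 p, but in C313Y the widest peaks. With them the log2 difference turned to -0.23 at Foxn1, -0.10 at Pax9, -0.36 at Six4, -0.16 at Tbx1 and -0.45 at Ehf. Without turning, it fell to 0.08 at Eya1, 0.12 at Trp63 and 0.35 at Pax1 with lists of equal length, so none of the 9 had an unadjusted p under 0.05 there except Six4, in the lower direction (exact permutation p = 0.0463). Genes gained in the knockout numbered 2 at a −log10 q of at least 3 (Pax1 and Ehf), 0 with lists of equal length, and 1 to 2 with a library left out. Member regions gained in the knockout numbered 5 at that q, 3 with equal lists, 11 where peaks had to cover at least 50% of the region, and 25 to 38 with a library left out; regions lost numbered 2 with equal lists and 0 to 2 with a library left out. In C313Y, regions gained numbered 0 with equal lists and 3 to 13 with a library left out, and regions lost 1 with 50% cover and 1 to 5 with a library left out. In C442G, regions gained numbered 2 at that q, 2 with equal lists and 15 to 22 with a library left out, and regions lost 0 at that q, 3 with equal lists, 4 with 50% cover and 1 to 9 with a library left out. With 1 library in place of 2 a call needs fewer lists, by construction. At the lower end of Trp63 the equal-list difference of 0.95 had an exact permutation p of 0.157, and at the inner Six4 region p was 0.176 as a share of the list and 0.0556 with equal lists, both chosen after seeing the data. The cause of the other shifts was not tested. Unknown depth limits every absence to not called.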
